A study of Mus musculus with 28 samples.

Results

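The transcripts of tissue factor and of the plasminogen activation system were followed in mouse embryonic fibroblasts (MEFs) on 28 Affymetrix MG-430 PM arrays. The genes were chosen by name and numbered 7: F3, Tfpi, Thbd, Plat, Plau, Plaur and Thbs1. A probe set belonged to them when one of these names was its only gene symbol, which held for 11 of the 45037 probe sets tested. These 11 probe sets stood for 6 of the 7 genes, out of 17097 genes with a single symbol. For Thbs1, which encodes thrombospondin 1, no probe set met the rule, and it was not analysed here.

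The arrays fell into 8 groups. MEFs without p53 (p53-/-) gave 4 arrays labelled H2O2 and 4 labelled untreated. MEFs without the adaptor protein p66Shc (p66-/-) gave 2 arrays after doxorubicin (Doxo), a drug that damages DNA, 4 after H2O2 and 4 untreated, and wild-type (WT) MEFs gave the same numbers. H2O2 was given at 400 µM and Doxo at 0.25 µg/ml, both for 4 h, and there were no p53-/- arrays with Doxo. All cells were primary cultures at passage 2 from embryos of 13.5 days, the mutants carried the deletion in every cell, and the study describes the arrays of a group as independent RNA preparations. The labels give the strain as C57Bl/6, while the study's text names sv129.

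Tissue factor, encoded by F3, is the membrane receptor of factor VII and starts clotting when fibroblasts meet blood. Tissue factor pathway inhibitor (Tfpi) blocks that complex, and thrombomodulin (Thbd) binds thrombin and turns it towards activation of protein C. Tissue-type (Plat) and urokinase-type (Plau) plasminogen activators make plasmin, which dissolves fibrin and matrix, and the urokinase receptor (Plaur) holds urokinase at the cell surface. F3, Plau and Plaur are known as genes that growth factors and stress kinases induce quickly, partly through the factor AP-1.

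Promoters were at hand only for F3, Plaur and Tfpi, the 3 member genes whose transcripts fell after Doxo. No promoter of a member that did not fall could be set beside them, and a shared cause was not tested. RefSeq sequences of the GRCm38.p6 build were matched by symbol for 3 of the 7 genes, with 1 start for F3, 1 for Plaur and 2 for Tfpi. Each line gives the 250 bases before the start on the gene's own strand, and capitals mark the AP-1 motif TGANTCA, which reads the same on both strands. They lie at chr3:121723287-121723536 (plus strand) for F3, chr7:24462233-24462482 (plus strand) for Plaur, and chr2:84476760-84477009 and chr2:84474175-84474424 (minus strand) for Tfpi.
F3: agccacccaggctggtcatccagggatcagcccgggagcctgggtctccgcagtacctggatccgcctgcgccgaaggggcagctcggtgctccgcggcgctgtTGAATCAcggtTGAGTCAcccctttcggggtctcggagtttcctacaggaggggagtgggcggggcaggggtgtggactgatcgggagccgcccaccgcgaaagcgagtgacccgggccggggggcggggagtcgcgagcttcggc
Plaur: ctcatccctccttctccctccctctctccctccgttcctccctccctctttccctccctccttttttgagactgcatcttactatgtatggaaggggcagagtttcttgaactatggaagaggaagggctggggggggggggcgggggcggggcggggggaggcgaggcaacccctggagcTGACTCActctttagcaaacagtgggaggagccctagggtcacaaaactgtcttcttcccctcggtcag
Tfpi first start: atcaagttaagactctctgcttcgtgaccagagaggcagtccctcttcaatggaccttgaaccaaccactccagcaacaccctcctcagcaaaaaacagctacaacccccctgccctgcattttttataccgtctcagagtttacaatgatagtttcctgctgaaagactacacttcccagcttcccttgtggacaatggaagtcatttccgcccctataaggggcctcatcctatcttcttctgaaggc
Tfpi second start: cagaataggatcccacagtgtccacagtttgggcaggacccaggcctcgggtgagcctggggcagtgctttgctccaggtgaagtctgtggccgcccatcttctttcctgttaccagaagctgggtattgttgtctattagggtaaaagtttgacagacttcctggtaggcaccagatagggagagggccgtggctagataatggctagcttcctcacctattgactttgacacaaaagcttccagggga

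F3 held the motif at 2 places, which began 146 and 135 bases before the start, and Plaur held it once, 69 bases before the start. Both windows of Tfpi lacked these letters. Of 32851 RefSeq promoter windows of the same length, 6.75% held TGANTCA. The GC box GGGCGG, searched on both strands, stood 3 times in F3, 3 times in Plaur, where 2 of the matches overlap by a base, and once in each window of Tfpi, while 32.7% of all windows held it at least once. The TATA box TATAAA, also searched on both strands, stood once in the first window of Tfpi and in 12.4% of all windows. A match of letters describes the sequence and shows no binding.

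The median over 10 fibroblast markers was 8.27 to 10.2 on every array on the log2 scale, with means of 12.9 for Vim and 12.3 for Col3a1, but 5.10 for Col1a2, 5.64 for Pdgfra and 6.29 for Lum. The 10 endothelial markers, of interest because endothelium carries much Thbd and Tfpi, had array medians of 3.36 to 3.89, below the array medians of all probe sets (4.35 to 4.46), and their means ran from 3.01 (Vwf) to 6.13 (Egfl7), with Egfl7 and Kdr (5.05) above the array medians. Macrophage markers (7 of 8 measured) were present at levels that varied greatly, with sums of linear values of 200.1 to 2784, and those of p53-/- arrays labelled H2O2 spanned 200.1 to 2074. Their part in the values of Plaur and Thbd, which macrophages also carry, was not tested. Bacterial spike-in controls were compared between sets of arrays formed from the treatment and replicate labels. The control lys averaged 4.19 ± 0.16 on the 4 Doxo arrays (SD). It averaged 5.27 ± 0.28 on 12 arrays of replicates 1 and 2 and 3.59 ± 0.28 on 12 of replicates 3 and 4. The control BioB averaged 8.03 ± 0.12, 6.77 ± 0.29 and 7.395 ± 0.14 on the same sets. For BioB the Doxo arrays lay at 7.86 to 8.14, and no other array exceeded 7.64. Since no untreated array shared the BioB level of the Doxo arrays, Doxo and array set cannot be told apart.

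The treatment labels of the p53-/- arrays went against genes that H2O2 induces. Gadd45a, a growth arrest gene, averaged 6.57 in the p53-/- group labelled H2O2 and 9.62 in the p53-/- group labelled untreated, against 9.25 after H2O2 and 6.68 untreated in p66-/- MEFs and 9.90 after H2O2 and 6.69 untreated in WT MEFs. Atf3 ran the same way, with 5.98 labelled H2O2 and 8.88 labelled untreated in p53-/- MEFs. Cdkn1a, which p53 activates, averaged 6.64 and 7.65 on the same p53-/- groups, against 11.8 after H2O2 and 10.5 untreated in WT MEFs. The p53-/- group labelled H2O2 thus lay near untreated WT MEFs for Gadd45a and Atf3 (5.79 in untreated WT MEFs), and the one labelled untreated near WT MEFs after H2O2 (8.65 for Atf3). The study lists Gadd45a as raised in p53-/- MEFs after H2O2, with untreated WT MEFs as the baseline. Against that baseline (6.69) the p53-/- group labelled H2O2 showed no rise (6.57), and the one labelled untreated was higher (9.62). Whether the labels were exchanged was not tested. Every change of p53-/- MEFs is therefore given by the labels, and would change its sign if the labels were exchanged.

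Levels below are deposited log2 values, on which a difference of 1 is a doubling. With the brightest probe set standing for a gene, Plaur averaged 9.12, Plat 8.94, Tfpi 8.71, F3 8.46, Thbd 7.17 and Plau 6.57 over all arrays. Between 76.2% (Plau) and 93.6% (Plaur) of all probe sets had a lower mean, so each gene was expressed well above the dim end of the array. Levels of different probe sets do not rank genes by their amount of RNA. Over the 8 groups the means spanned 4.63 for F3 and 1.75 for Plaur, 1.5 for Tfpi and 1.33 for Plau, but 0.48 for Plat and 0.45 for Thbd.

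**Figure D1:**
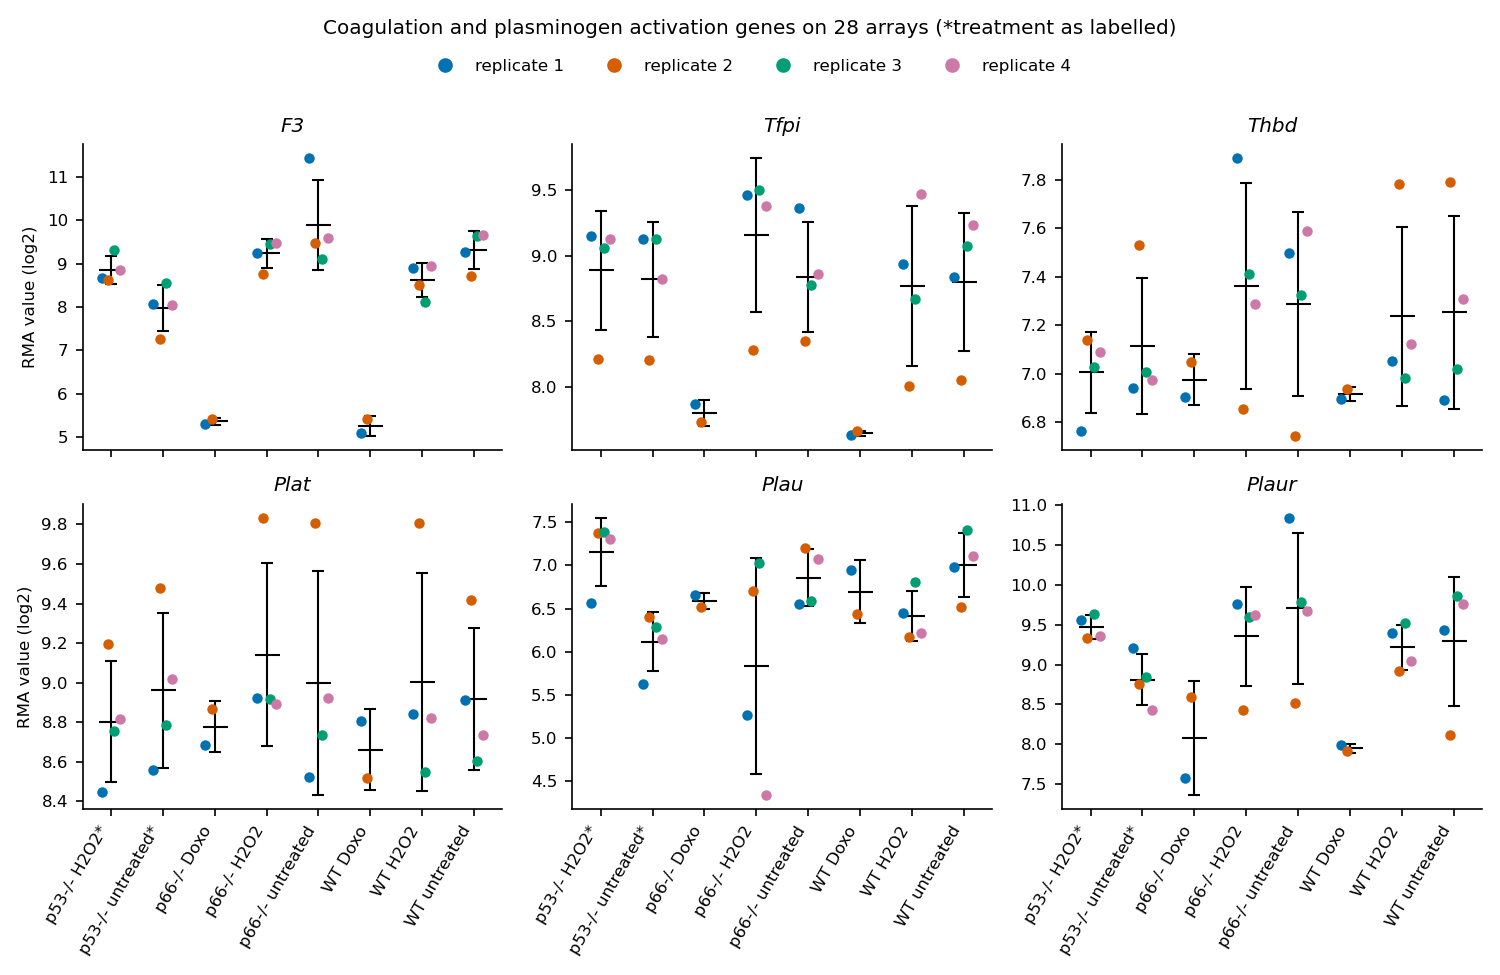
Each panel plots the log2 RMA value of 1 gene on every array by group, with the mean (bar) and SD (whiskers, n = 4, or 2 for Doxo) and colours for the replicate number. F3, Tfpi and Plaur are lowest in both Doxo groups, and replicate 2 is the highest Plat value and the lowest Tfpi value in each group of 4 arrays.

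With Doxo, 3 of the 6 measured genes fell in both genotypes, F3, Tfpi and Plaur, and no member rose. Over all probe sets, 40.7% were called and 14.1% fell in p66-/- MEFs, and 35% were called and 13% fell in WT MEFs, at the same threshold, an adjusted p under 0.05. The median change of the 6 genes was -0.67 in p66-/- and -0.74 in WT MEFs, beside 0.15 and 0.13 over all probe sets. In extracts of whole cultures, fewer cells that express a gene and less of its RNA per cell cannot be told apart. Of 10 fibroblast markers 3 fell with Doxo in p66-/- MEFs and 2 in WT MEFs, and none rose. Of 10 endothelial markers 2 rose in p66-/- MEFs (Egfl7 and Cldn5) and 3 in WT MEFs (these and Esam), and none fell. Of 7 macrophage markers 1 rose (Csf1r, 0.92) and 1 fell (Ptprc, -1.47) in p66-/- MEFs, and 2 rose in WT MEFs (Csf1r, 0.88, and Fcgr1, 0.49). Of 4 megakaryocyte and platelet markers 2 rose in p66-/- MEFs and 1 in WT MEFs. Of 5 epithelial markers 1 rose in p66-/- MEFs, and of 4 smooth muscle markers 1 rose and 1 fell in p66-/- MEFs and 1 fell in WT MEFs. The macrophage sums were 1960 to 2562 with Doxo and 1203 to 2373 untreated in p66-/- MEFs, and 1612 to 2784 with Doxo and 330.6 to 2518 untreated in WT MEFs. The part of these cells in the changes was not tested.

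F3 had by far the largest change of the set. It stood at 5.31 and 5.42 on the p66-/- Doxo arrays, against 11.42, 9.47, 9.10 and 9.59 on the untreated p66-/- arrays. WT MEFs gave 5.10 and 5.42 with Doxo, against 9.27, 8.71, 9.62 and 9.66 without treatment. All 4 Doxo arrays were thus more than 3 units below the lowest untreated array of their genotype, and the level of the Doxo arrays was within about 1 unit of the median of all probe sets. The log2 change was -4.53 in p66-/- MEFs (SE 0.44, 95% interval -5.45 to -3.61, adjusted p = 2.957e-07), or 23.1-fold lower. The WT change was -4.06 (SE 0.44, interval -4.97 to -3.14, adjusted p = 1.102e-06), or 16.6-fold lower. Among 45037 probe sets only 10 had a more negative change in p66-/- MEFs and 35 in WT MEFs. The spread between arrays was unequal, since replicate 1 of the untreated p66-/- MEFs lay 1.83 above the next array, and without it the change was -4.02.

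Tfpi, the inhibitor of the tissue factor complex, fell as well. At its brightest probe set, 1451791_PM_at, it read 7.87 and 7.73 on p66-/- Doxo arrays, against 9.36, 8.35, 8.78 and 8.86 on untreated p66-/- arrays. WT MEFs read 7.64 and 7.67 with Doxo, against 8.84, 8.06, 9.07 and 9.23 untreated. The groups did not overlap in either genotype, although replicate 2 of the untreated arrays came within 0.5 of the Doxo arrays. The change was -1.03 in p66-/- MEFs (SE 0.40, adjusted p = 0.04122) and -1.15 in WT MEFs (SE 0.40, adjusted p = 0.02874).

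The other 3 probe sets of Tfpi gave the same direction with different sizes. Probe set 1438530_PM_at stood at 5.10 and 5.43 on p66-/- Doxo arrays and 6.69 to 8.27 on untreated p66-/- arrays, and at 5.45 and 5.57 on WT Doxo arrays and 6.60 to 7.87 on untreated WT arrays. Its change was -2.04 in p66-/- MEFs (adjusted p = 0.0007183) and -1.77 in WT MEFs (adjusted p = 0.00285). Probe set 1452432_PM_at changed by -1.5 in p66-/- MEFs (adjusted p = 0.006328) and -1.81 in WT MEFs (adjusted p = 0.001848). The fourth, 1451790_PM_a_at, changed by -0.95 in p66-/- MEFs and -1.04 in WT MEFs and missed the threshold (adjusted p = 0.0941 and 0.0769). In all, 5 of the 11 probe sets of the members fell in each genotype, 3 of them of Tfpi.

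Plaur, the receptor that focuses urokinase on the cell, read 7.58 and 8.59 on p66-/- Doxo arrays, against 10.84, 8.52, 9.79 and 9.67 on untreated p66-/- arrays. In WT MEFs it read 7.99 and 7.91 with Doxo, against 9.44, 8.11, 9.86 and 9.76 untreated. The p66-/- groups overlapped at replicate 2, and in WT MEFs the lowest untreated array was only 0.12 above the higher Doxo array. The change was -1.62 in p66-/- MEFs (SE 0.48, adjusted p = 0.01117) and -1.34 in WT MEFs (SE 0.48, adjusted p = 0.03535). When any single array of WT untreated replicates 1, 3 and 4 or WT Doxo replicates 1 and 2 was left out, neither Plaur (adjusted p from 0.06523 to 0.169) nor Tfpi (from 0.05023 to 0.1334) passed in WT MEFs. Without p66-/- Doxo replicate 1 neither passed in p66-/- MEFs (adjusted p = 0.176 for Plaur and 0.1167 for Tfpi). Tfpi was also lost there without p66-/- untreated replicate 1 (adjusted p = 0.1088), 3 (0.05205) or 4 (0.05847) or Doxo replicate 2 (0.1834).

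The activators themselves and thrombomodulin showed small differences that did not pass the test. Plat stood at 8.69 and 8.87 on p66-/- Doxo arrays and 8.52 to 9.81 on untreated p66-/- arrays, and its change was -0.22 (95% interval -0.96 to 0.51). WT arrays stood at 8.81 and 8.52 with Doxo and 8.60 to 9.42 untreated, a change of -0.26 (interval -0.99 to 0.48). The Doxo arrays lay within or next to the untreated range in both genotypes. Plau changed by -0.27 in p66-/- MEFs (interval -1.25 to 0.72) and -0.31 in WT MEFs (interval -1.30 to 0.67). Thbd changed by -0.31 in p66-/- MEFs (interval -0.88 to 0.26) and -0.34 in WT MEFs (interval -0.91 to 0.23). These intervals include falls of about the size seen for Tfpi in the case of Plau, and do not show that the genes were unaffected. A second Plat probe set was near the dim end of the array, with a mean of 3.57.

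**Figure D2:**
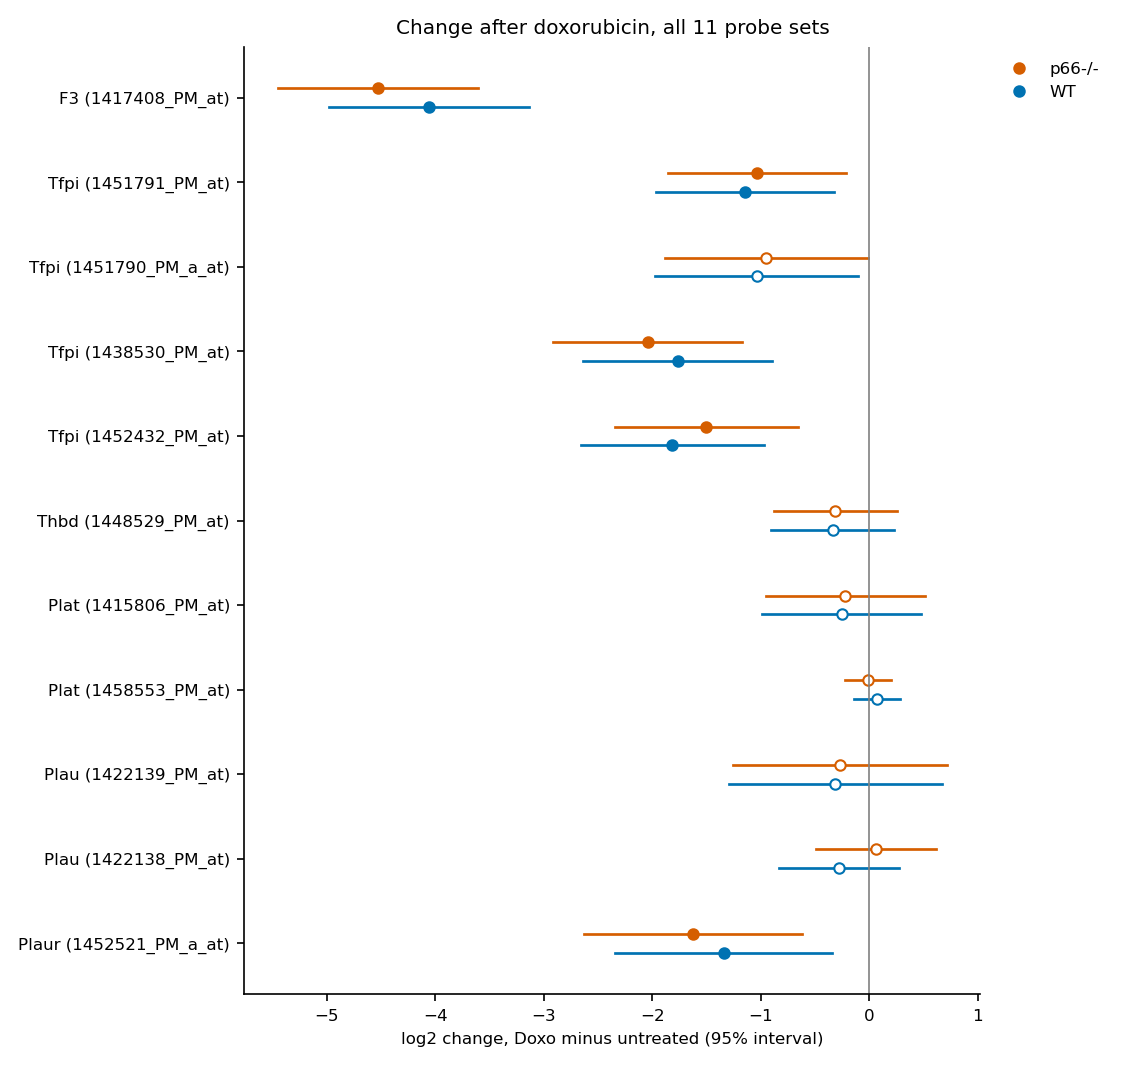
Points give the log2 change from untreated to Doxo at each of the 11 probe sets, with 95% intervals, for p66-/- (upper) and WT (lower) MEFs, and filled points have an adjusted p under 0.05. F3 lies at -4.53 and -4.06, 3 of the 4 Tfpi probe sets and Plaur are filled at -1.03 to -2.04, and the probe sets of Thbd, Plat and Plau are open.

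No member differed in its Doxo change between the genotypes. The difference of changes, p66-/- minus WT, was -0.47 for F3 (95% interval -1.77 to 0.83), -0.28 for Plaur (interval -1.70 to 1.14) and 0.11 for Tfpi (interval -1.05 to 1.27). limma called 0 members and 0% of all probe sets here, and 0 members had an unadjusted p under 0.05, as did 2.39% of all probe sets, so the intervals set how large a difference may have gone undetected.

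Of 34 other genes of clotting and plasminogen activation, 29 had a probe set and the other 5 were not analysed here. After Doxo, 5 rose and 4 fell in p66-/- MEFs, and 8 rose and 4 fell in WT MEFs. Over all probe sets 26.6% rose and 14.1% fell in p66-/- MEFs, and 21.9% rose and 13% fell in WT MEFs, and the share of these genes that fell was close to that. The 4 genes that fell in each genotype were F2r, Itgb1, Itgav and Pros1. F2r, a receptor that thrombin cleaves, averaged 9.98 with Doxo and 12.1 untreated in p66-/- MEFs, a change of -2.13 (SE 0.28, adjusted p = 7.739e-06), and 10.1 with Doxo and 11.98 untreated in WT MEFs, a change of -1.90 (SE 0.28, adjusted p = 3.246e-05). Its Doxo arrays all lay below the untreated ones. The integrin subunits Itgb1 (-1.76 in p66-/-, -1.60 in WT MEFs) and Itgav (-1.46 in p66-/-, -1.52 in WT MEFs), which bind the urokinase receptor and its ligand vitronectin, fell at adjusted p from 0.0001389 to 0.0005405. Pros1, the cofactor of activated protein C, changed by -1.33 in p66-/- MEFs and -1.52 in WT MEFs (adjusted p = 0.004004 and 0.001693).

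The rises were smaller. Serpinf2, the main inhibitor of plasmin, averaged 5.76 with Doxo and 5.20 untreated in p66-/- MEFs, a change of 0.56 (SE 0.12, adjusted p = 0.001014), and changed by 0.39 in WT MEFs (adjusted p = 0.01481). The called rises among these genes ran from 0.34 to 0.56 in p66-/- MEFs and from 0.25 to 0.94 in WT MEFs, and F10 and F2rl3, picked out here after their values were seen, rose at dim levels, with untreated means of 3.27 to 3.46. By role, the clotting proteases and their receptors gave 3 rises and 1 fall of 6 in p66-/- MEFs and 4 rises and 1 fall of 6 in WT MEFs. The 5 partners of the urokinase receptor gave 2 falls in each genotype, and the 5 thrombospondins and their receptors gave no call. These groups are small beside the 40.7% of all probe sets called in p66-/- MEFs and the 35% in WT MEFs, and nothing particular to them is read from the counts.

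**Figure D3:**
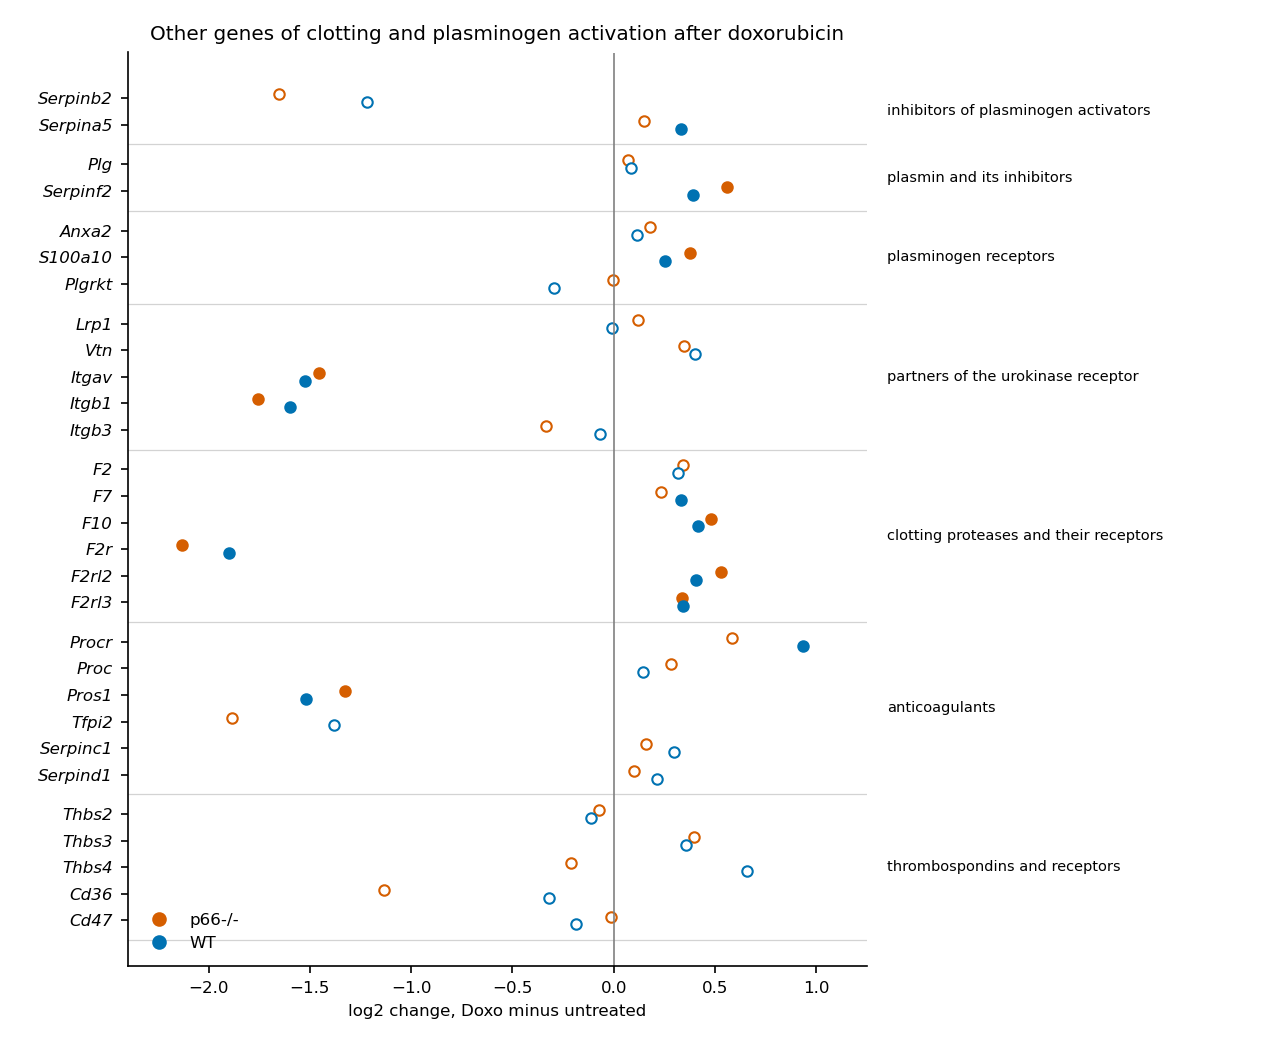
Points give the log2 change from untreated to Doxo in p66-/- and WT MEFs for 29 other genes of the system, grouped by role as written at the right, and filled points have an adjusted p under 0.05. F2r, Itgb1, Itgav and Pros1 lie between -1.33 and -2.13, and filled points right of 0 reach 0.56 in p66-/- and 0.94 in WT MEFs.

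H2O2 called no member in any genotype. The shares of all probe sets called were 4.56% in p53-/- MEFs by the labels, 0.0178% in p66-/- MEFs and 3.66% in WT MEFs. At an unadjusted p under 0.05 the members numbered 2 in p53-/-, 1 in p66-/- and 0 in WT MEFs, where 17.2%, 4.41% and 12.4% of all probe sets did so. At the thresholds of the study, an unadjusted p under 0.05 with a change of at least 1.5-fold, 4.78% of all probe sets passed in p53-/- MEFs with 2 members, F3 and Plau, and 0.908% in p66-/- MEFs with 1 member, Plau. None of the 29 other genes passed in p66-/- or WT MEFs.

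F3 was on average lower after H2O2 in both genotypes whose labels were not in doubt, without passing the test. In p66-/- MEFs it stood at 9.25, 8.75, 9.45 and 9.48 with H2O2, against 11.42, 9.47, 9.10 and 9.59 untreated. In WT MEFs it stood at 8.90, 8.51, 8.11 and 8.95 with H2O2, against 9.27, 8.71, 9.62 and 9.66 untreated. The groups overlapped in both genotypes. Between samples of the same replicate number, the H2O2 sample was lower in 3 of 4 p66-/- pairs and in 4 of 4 WT pairs. The change was -0.66 in p66-/- MEFs (95% interval -1.41 to 0.09, adjusted p = 1) and -0.70 in WT MEFs (interval -1.45 to 0.05, adjusted p = 0.4653), and a two-sided exact permutation test gave p = 0.3429 in p66-/- and p = 0.08571 in WT MEFs. The p66-/- change rested mostly on untreated replicate 1 (11.42) and was -0.15 without that array. With replicates 1 and 2 alone it was -1.44, and with replicates 3 and 4 alone it was 0.12.

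In p53-/- MEFs F3 stood at 8.66, 8.61, 9.32 and 8.85 on the arrays labelled H2O2, against 8.08, 7.26, 8.55 and 8.05 on those labelled untreated. The groups did not overlap, and the sample labelled H2O2 was higher in 4 of 4 pairs. By the labels the change was 0.88 (SE 0.36, interval 0.13 to 1.63), with an adjusted p of 0.2003. An exact permutation test that left the pairs out of account gave p = 0.02857, the smallest that 4 against 4 arrays can give. With exchanged labels the change would be -0.88, beside -0.66 in p66-/- MEFs (-0.15 without untreated replicate 1) and -0.70 in WT MEFs.

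Plau, the urokinase gene, stood at 6.57, 7.38, 7.38 and 7.31 on p53-/- arrays labelled H2O2, against 5.63, 6.40, 6.28 and 6.15 labelled untreated. In p66-/- MEFs it stood at 5.26, 6.71, 7.02 and 4.34 with H2O2, against 6.56, 7.20, 6.59 and 7.08 untreated. In WT MEFs it stood at 6.45, 6.17, 6.80 and 6.22 with H2O2, against 6.99, 6.52, 7.41 and 7.11 untreated. The p53-/- groups did not overlap while those of the other genotypes did, and p66-/- H2O2 replicate 4 was the lowest Plau value of all arrays. The changes were 1.04 in p53-/- MEFs by the labels (adjusted p = 0.1433), -1.02 in p66-/- MEFs (SE 0.39, adjusted p = 0.8766) and -0.59 in WT MEFs (adjusted p = 0.6666). The sample with H2O2 was higher in 4 of 4 p53-/- pairs by the labels, and lower in 3 of 4 p66-/- pairs and 4 of 4 WT pairs. The second probe set, 1422138_PM_at, had the same directions with smaller sizes, 0.43 in p53-/- MEFs by the labels, -0.44 in p66-/- MEFs and -0.38 in WT MEFs, and its p53-/- groups overlapped.

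Plaur stood at 9.56, 9.33, 9.63 and 9.36 on p53-/- arrays labelled H2O2, against 9.21, 8.76, 8.84 and 8.43 labelled untreated, a change of 0.66 without overlap (adjusted p = 0.4178). The change in p66-/- MEFs was -0.35 (interval -1.17 to 0.47) and in WT MEFs -0.08 (interval -0.89 to 0.74), with overlapping groups. Between same-numbered samples Plaur was higher in 4 of 4 p53-/- pairs by the labels, and lower in 4 of 4 p66-/- pairs and 3 of 4 WT pairs. Plat, Thbd and Tfpi changed by -0.16 to 0.07 in p53-/- MEFs by the labels, 0.07 to 0.32 in p66-/- MEFs and -0.03 to 0.09 in WT MEFs, with overlapping groups. Plat was lower in 4 of 4 p53-/- pairs by the labels, with differences of -0.29 to -0.03. Their 95% intervals reached at most 0.76 below and 0.99 above 0.

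**Figure D4:**
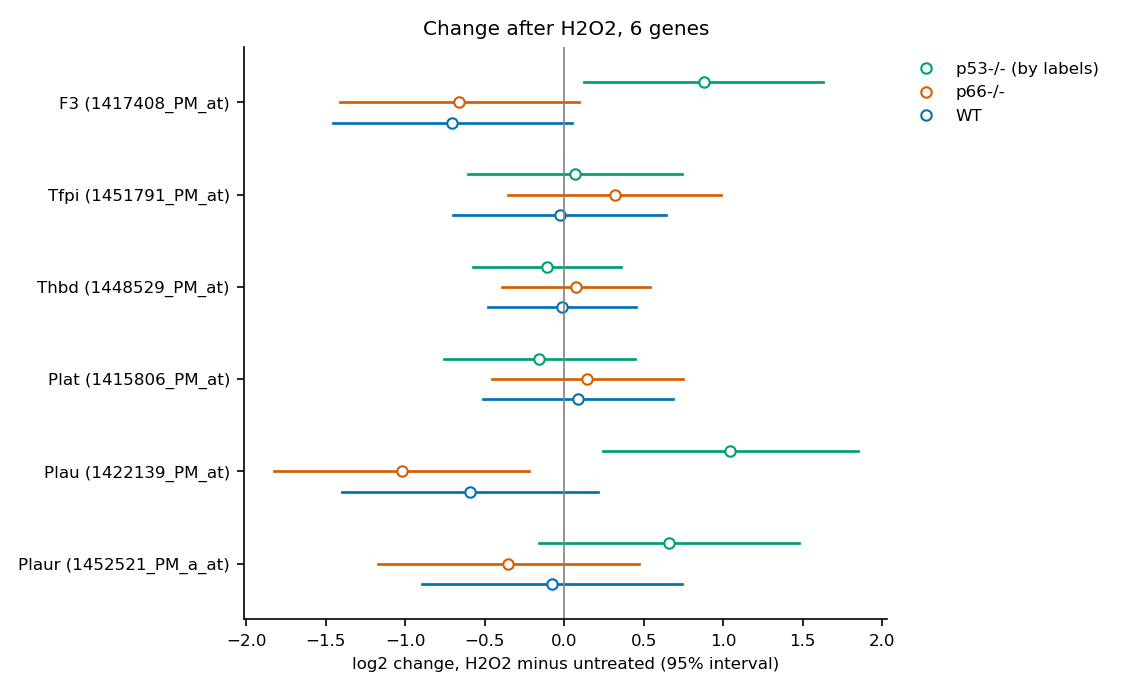
Points give the log2 change from untreated to H2O2 at the brightest probe set of each gene, with 95% intervals, for p53-/- MEFs by the labels (upper), p66-/- (middle) and WT MEFs (lower). No point has an adjusted p under 0.05, and F3, Plau and Plaur lie at 0.66 to 1.04 in p53-/- MEFs against -1.02 to -0.08 in p66-/- and WT MEFs.

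The difference of the H2O2 changes, p53-/- by the labels minus WT, was 1.58 for F3 (SE 0.51, 95% interval 0.52 to 2.64, adjusted p = 0.04954), the 1 member called, where 10.8% of all probe sets were called and 5.17% rose. It was 1.64 for Plau (SE 0.55, adjusted p = 0.05855), with 0.81 at its second probe set (adjusted p = 0.1018), and 0.74 for Plaur (adjusted p = 0.4866). With the replicate number as a block, 2 members were called, F3 (adjusted p = 0.02831) and Plau (adjusted p = 0.03182). With exchanged labels the difference was -0.17 for F3 and -0.45 for Plau, both with an adjusted p of 1, and no member was called. The call of F3 was lost when any 1 of 22 of the 28 arrays was left out, with values of 1.34 to 1.69 in those fits and adjusted p from 0.05047 to 0.1039. It held only without WT untreated replicate 2, WT H2O2 replicate 1, p66-/- untreated replicate 1 or 3, p66-/- H2O2 replicate 2 or p53-/- labelled untreated replicate 3. Between p66-/- and WT MEFs the difference was 0.04 for F3 (interval -1.02 to 1.11) and -0.43 for Plau (interval -1.57 to 0.71), and 0 members were called beside 0.00222% of all probe sets. At an unadjusted p under 0.05, 2 members passed in the difference for p53-/- MEFs, where 22.4% of all probe sets did, and 0 in that for p66-/- MEFs, where 3.05% did. The thresholds of the study passed the same 2 members, F3 and Plau, and 13.3% of all probe sets in the p53-/- difference.

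Among the 29 other genes, by the labels, 2 fell with H2O2 in p53-/- MEFs, F2 (-0.57) and Plg (-0.35), the genes of prothrombin and plasminogen, where 2.45% of all probe sets fell. Both lay near the dim end, with means of 3.25 and 3.34 on arrays labelled H2O2 and 3.82 and 3.69 on those labelled untreated. In the difference of changes from WT, F2 (-0.88) and Plg (-0.46) fell and Lrp1 (0.83), the endocytic receptor that clears urokinase complexes, rose, where 5.63% of all probe sets fell. With exchanged labels these differences were 0.27, 0.24 and -0.00413, and none passed. The call of Lrp1 was also lost with further quantile normalization (adjusted p = 0.0502), with replicates 1 and 2 alone (0.6154), and without WT untreated replicate 2, WT H2O2 replicate 3 or 4, p53-/- labelled untreated replicate 1 or 3, or p53-/- labelled H2O2 replicate 2, 3 or 4 (0.05283 to 0.07372). With replicates 1 and 2 alone the differences of F2 and Plg had adjusted p of 0.06178 and 0.2813, and with replicates 3 and 4 alone that of Plg was 0.115. The change of Plg within p53-/- MEFs lost its call without p53-/- labelled H2O2 replicate 1 or p53-/- labelled untreated replicate 1 or 4 (0.05161 to 0.08455), with only the compared groups (0.09549) and with either pair of replicates alone (0.3076 and 0.1917), and that of F2 with replicates 1 and 2 alone (0.3158).

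Genotype itself was compared over the mean of the untreated and H2O2 arrays, which does not depend on the p53-/- labels. p53-/- MEFs had less F3 than WT MEFs, 8.42 against 8.97, a difference of -0.54 (95% interval -1.08 to -0.01), and p66-/- MEFs had more, 9.57 against 8.97, a difference of 0.60 (interval 0.07 to 1.13). Neither passed over all probe sets (adjusted p = 0.3734 for p53-/- and 0.5439 for p66-/-). No member was called in either comparison, where 1.04% of all probe sets were called for p53-/- and 0.00444% for p66-/-, and F3 was the 1 member with an unadjusted p under 0.05 in each at its brightest probe set, as were 12.9% of all probe sets for p53-/- and 8.29% for p66-/-. F3 also passed the thresholds of the study in p66-/- MEFs, with 0.691% of all probe sets. With single arrays left out, the F3 difference between p66-/- and WT MEFs ran from 0.35 to 0.73. It was smallest without p66-/- untreated replicate 1 (11.42), where it fell short of the fold limit of the study. The remaining members differed from WT by -0.19 to 0.07 in p53-/- and by -0.36 to 0.27 in p66-/- MEFs. Of the other genes, S100a10, a plasminogen receptor, was lower in p53-/- MEFs, with 11.73 against 11.95 in WT MEFs (difference -0.23, adjusted p = 0.04382), where 0.613% of all probe sets fell. This call was lost with further quantile normalization (adjusted p = 0.05237), with replicates 3 and 4 alone (0.5946), with only the compared groups (0.1033) and without any 1 of 19 of the 28 arrays (0.05068 to 0.1056). It held without WT H2O2 replicate 4, p66-/- untreated replicate 1, 2 or 3, p66-/- H2O2 replicate 1 or 2, p66-/- Doxo replicate 1 or 2, or p53-/- labelled untreated replicate 4.

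The replicate number accounted for a visible share of the spread of some members. In each of the 6 groups with 4 arrays, replicate 2 had the highest Plat value (9.19 to 9.83) and the lowest Tfpi value at 1451791_PM_at (8.01 to 8.35). Replicate 1 had the highest value of the other Tfpi probe sets 1438530_PM_at (7.87 to 8.27) and 1452432_PM_at (7.33 to 7.83) in all 6 groups. The probe sets of 1 gene thus ranked the same arrays differently. For Plaur, replicate 2 was the lowest of its group in 5 of 6 groups, and for F3 in 4 of 6. Macrophage markers summed to 200.1 to 2361 on the replicate 2 arrays and to 1644 to 2603 on those of replicate 3, and their part was not tested.

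Genes with the most similar pattern over the 8 group means were sought among 4794 genes whose means spanned at least 1 unit. F3 was nearest to Ccnyl1 (Pearson r = 0.9972) and Fubp3 (0.9965), Tfpi to Asah1 (0.9972) and Acvr2a (0.9969), and Plaur to Ereg (0.9918) and Noct (0.9888). In WT MEFs the Doxo changes of these 6 genes ran from -2.98 (Ereg) to -1.27 (Asah1). They were chosen for likeness to members that were lowest with Doxo, so their falls follow from the choice. Plat was nearest to Atp8b4 (0.961) and Zdhhc2 (0.9562), Thbd to Gm41724 (0.9783) and Papss2 (0.9749), and Plau to Aacs (0.821) and Grwd1 (0.813). These are descriptions over 8 points that share arrays.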

How the data were processed

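Total RNA of 28 MEF cultures was labelled and hybridized by the authors, who normalized the arrays with RMA in Partek 6.5 per the labels. These deposited numbers are log2 values, from 1.95 to 13.5, and were used as they stand. RMA can compress large changes and values near the floor. Depth does not apply to arrays, whose number sets the precision.

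Of 45141 probe sets, 104 controls were left out. A platform annotation gave 28898 probe sets a single symbol, 551 several and 15588 none, and it can be old. The probe set with the highest mean stood for a gene.

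All arrays entered 1 limma fit (version 3.58.1, R 4.3.3) with 8 group means, with adjusted p-values (Benjamini-Hochberg) over 45037 probe sets and a threshold of 0.05. Fold changes are from log2 differences. Exact permutation tests were two-sided and moved arrays without regard to the replicate number, and 2 against 4 arrays cannot go below p = 0.06667. Comparisons of H2O2 and Doxo with untreated cells of a genotype share the untreated arrays. On simulated data for WT Doxo the fit recovered 54% of true log2 changes of -1, 72% of changes of 1 and 96% of changes of 2. For WT H2O2 these shares were 68%, 82% and 98%. The simulated data gave 131 calls for WT Doxo and 152 for WT H2O2, against 15752 and 1650 in the deposited data. With so many more calls the adjusted threshold differs, so these shares describe the simulated setting alone.

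Same-numbered H2O2 and untreated samples deviated together (correlations of 0.51 to 0.75 in 12 pairs, which was found in the values), so 1 alternative fit had a block for the number. Doxo numbers did not pair (-0.08 to 0.05). The correlations were taken within a genotype, while the block joined arrays of a number across all genotypes and treatments, Doxo included.

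Members, the 34 other genes (named at most 4 per comparison, by lowest adjusted p among those called, and F10 and F2rl3, chosen after their values were seen), markers and the 2 most alike genes followed fixed rules. The members and lists were chosen with earlier results of these data known. Alternatives comprised leaving out dim probe sets or each array, further quantile normalization, replicate sets, only the compared groups, the methods' t-test, the thresholds of the study and exchanged p53-/- labels.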

Additional observations from a re-analysis of the deposited data

Results flagged for a closer look

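Of 66 groups of 4 arrays examined at the 11 probe sets, 10 held an array whose gap to the nearest other relative to the group's range exceeded Dixon's 95% critical value, where chance gives about 1 in 20. The 66 are not independent, since 4 of the 11 probe sets are of Tfpi and the same arrays recur at every probe set. No excess over chance is therefore read from the count. Replicate 2 was the outlying array in 8 of the 10. It was high for Plat in p66-/- H2O2 (9.83) and for Thbd in p53-/- labelled untreated (7.53). It was low for Plaur in p66-/- H2O2 (8.43), for Tfpi at 1451791_PM_at in p53-/- labelled H2O2 (8.22) and p66-/- H2O2 (8.28), and for Tfpi at 1451790_PM_a_at in p53-/- labelled H2O2 (7.87), p53-/- labelled untreated (7.21) and p66-/- H2O2 (8.03). Replicate 1 was low for Plau in p53-/- labelled H2O2 (6.57) and high for Tfpi at 1452432_PM_at in p53-/- labelled untreated (7.61).

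The H2O2 change of F3 differed between p53-/- and WT MEFs by 1.58 with the labels as given (limma interaction term, adjusted p = 0.04954) and by -0.17 with the p53-/- labels exchanged.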

How the results depend on the processing

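The fall of F3 after Doxo kept its call under every alternative run, with changes of -5.08 to -4.02 in p66-/- MEFs and -4.26 to -3.73 in WT MEFs. The 3 members called with Doxo were reduced to 1 in p66-/- MEFs with replicates 1 and 2 alone and with the methods' t-test after adjustment, and to 1 in WT MEFs with these and with further quantile normalization. Plaur alone lost its call with only the compared groups (adjusted p = 0.09201 in p66-/- and 0.06664 in WT MEFs) and with the t-test at the study's thresholds, and Tfpi alone in p66-/- MEFs with further quantile normalization (0.0867). Leaving out 1 array gave 1 to 3 called members in p66-/- MEFs and 1 to 3 in WT MEFs. For the difference of H2O2 changes, p53-/- minus WT, the count was 2 with the replicate number as a block, with dim probe sets left out, with replicates 3 and 4 alone, with only the compared groups and at the thresholds of the study. The members called were F3 and Plau, except with replicates 3 and 4 alone. There they were F3 (adjusted p = 0.00874) and Plaur (0.004235), and Plau was not called (0.1896). The count was 0 with further quantile normalization, with replicates 1 and 2 alone and with exchanged labels, and 0 to 2 with 1 array left out. For H2O2 in p53-/- MEFs the count was 1 with replicates 3 and 4 alone (Plaur), 2 at the thresholds of the study, 3 with the t-test at those thresholds and 0 to 1 with 1 array left out (1 without p66-/- H2O2 replicate 4). In WT MEFs it was 1 with replicates 3 and 4 alone (F3, -1.12, adjusted p = 0.04188) and 1 with the t-test at the thresholds of the study. At those thresholds it was 1 in p66-/- MEFs with H2O2 and 1 for p66-/- against WT. The block on the replicate number changed the call of no other member. With exchanged labels the p53-/- changes of F2 and Plg became 0.57 and 0.35, and the differences from WT became -0.17 for F3, 0.27 for F2, 0.24 for Plg and -0.00413 for Lrp1. Among 2724 single values, 117 changed sign without being called in either setting. The cause of these dependences was not tested. As a background for the counts, the study's limits in the limma fit were met by 4.78% of the probe sets for H2O2 in p53-/- MEFs. For the difference of H2O2 changes, p53-/- minus WT, that share was 13.3%. For the other settings, the t-test included, no such share is given here, so no excess of members is read from their counts. With 2 Doxo arrays per genotype in a set of their own, array set and Doxo cannot be told apart. Changes of about 1 log2 unit or less were often missed on the simulated data, which had far fewer calls. How often the fit missed them in the deposited data was not tested.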
